A study of Phyllostachys edulis with 2 samples.

Results

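The PLT1 and PLT2 orthologs of moso bamboo (Phyllostachys edulis) are the genes PH02Gene42801 and PH02Gene29833, which the study's ortholog table assigns to Arabidopsis PLETHORA1 (AT3G20840) and PLETHORA2 (AT1G51190). They are 2 of the 50936 genes in the count files, of which 39696 had at least 1 unique molecular identifier (UMI, 1 counted transcript molecule) in a kept cell. The pair was chosen with its co-detection and its levels across marker-defined cells already known, so those values are given below as a description, with no test. The data were 2 replicate single-cell RNA-seq libraries (10x Genomics) of protoplasts released from basal root tips about 2 cm long, cut from plants aged between 6 and 8 weeks. No treatment or genotype separated the libraries, and the comparisons below are between cells of the same libraries. Cells with more than 500 detected genes were kept, which left 7653 cells with a median of 3130 UMIs in library 1 and 7651 cells with a median of 3565 UMIs in library 2. In all, 15 barcode sequences occurred in both libraries. The 30 cells that carried them held no UMI of the PLT1 ortholog, and 1 of them held a UMI of the PLT2 ortholog.

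PLETHORA proteins are transcription factors of the AP2 type. In Arabidopsis roots they form a gradient with its maximum at the stem cell niche, where high doses maintain stem cells, intermediate doses keep cells dividing and low doses permit differentiation. PLT1 and PLT2 act redundantly there together with PLT3 and with BABY BOOM (BBM, also named PLT4), and their transcription depends on auxin. This is background from Arabidopsis and was not measured in the bamboo cells.

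Both orthologs were sparse transcripts, and the PLT1 ortholog was the more often detected of the pair. PH02Gene42801 had 540 UMIs in 328 cells of library 1 and 606 UMIs in 358 cells of library 2, which is 14.8 and 14.4 CPM (UMIs of the gene per 1000000 UMIs of all genes) and 4.29% (95% Clopper-Pearson interval 3.84% to 4.76%) and 4.68% (4.22% to 5.18%) of the cells. PH02Gene29833 had 79 UMIs in 70 cells of library 1 and 103 UMIs in 93 cells of library 2, which is 2.17 and 2.45 CPM and 0.915% (0.714% to 1.15%) and 1.22% (0.982% to 1.49%) of the cells. The 2 libraries therefore gave each gene nearly the same level, 14.6 ± 0.314 CPM for the PLT1 ortholog and 2.31 ± 0.195 CPM for the PLT2 ortholog (SD, n = 2 libraries). Levels were not compared between the 2 genes, since transcript lengths were not used here. All intervals cover counting error only.

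Most positive cells held a small number of molecules. A cell of library 1 held up to 7 UMIs of the PLT1 ortholog and a cell of library 2 up to 14, while 217 of the 328 and 241 of the 358 positive cells held exactly 1. For the PLT2 ortholog 64 of 70 and 85 of 93 positive cells held exactly 1 UMI, with maxima of 5 and 3. Positive cells were deeper than the rest. Cells with the PLT1 ortholog had a median of 7126 and 8664 UMIs, against 2919 and 3253 UMIs in cells without it, and cells with the PLT2 ortholog had a median of 7641 and 8529 UMIs, against 3098 and 3502 UMIs in cells without it. The expected numbers of doubly positive cells and the tests below are therefore made at like depth. The barcodes with 500 or fewer genes, 15 in library 1 and 5 in library 2, held no UMI of either gene.

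The other PLETHORA orthologs of the study's table ranged from nearly absent to widespread. PH02Gene27330, an ortholog of BBM, had 2714 UMIs in 1709 cells of library 1 and 2945 UMIs in 1804 cells of library 2, or 74.5 and 69.9 CPM. The second BBM ortholog, PH02Gene22504, had 10 and 23 UMIs. PH02Gene06628, the ortholog of AIL6 (PLT3), had 1 and 5 UMIs. Of the 5 family members in the table, only the BBM ortholog PH02Gene27330 was thus detected in more cells than the PLT1 ortholog.

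The cells fell into 15 clusters when the PLETHORA orthologs and the study's marker genes were left out of the genes used for clustering. These are called C0 to C14 here, to keep them apart from the study's numbered Clusters, and 11 of the 15 could be matched to a Cluster of the study by its marker genes. The PLT1 ortholog was concentrated in C11, which holds 501 cells (253 and 248) and matched no Cluster. It had 343 UMIs in C11 of library 1 and 351 UMIs in C11 of library 2, or 185 CPM (95% Poisson interval 166 to 205) and 170 CPM (152 to 188). C11 thus held 63.5% and 57.9% of the gene's UMIs in 3.31% and 3.24% of the cells. The second cluster in order was C4, matched to the study's undefined Cluster 3, with 26.8 and 28.4 CPM from 116 and 128 UMIs. The level in C11 was 6.42 times the level in C4.

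Below C4 the level of the PLT1 ortholog dropped to a shallow tail. C0, matched to the ground tissue Clusters 0 and 5, had 15.2 and 12.02 CPM, and C7, which was matched to no Cluster, had 9.42 and 6.66 CPM. Their Poisson intervals overlap, so the order of C0 and C7 is not settled by these counts. C6, C10, C1, C13, C3, C9, C2, C8, C5, C12 and C14 had means over the 2 libraries between 0 and 4.11 CPM. Within a library their intervals overlap, except that C6 lay above C5 in library 1. C9, matched to the study's initial cells, had 3 and 9 UMIs, or 1.09 and 3.18 CPM. C14, matched to root cap Cluster 12, had 0 UMIs in 38 and 35 cells, which at the limit of 3 counts allows a share of up to 7.89% and 8.57% of its cells with a UMI. C0 is a cluster of shallow cells, with medians of 936 and 1005 UMIs, and its level of the PLT1 ortholog lay near that of the whole library. The part of free RNA in this level was not tested.

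**Figure D1:**
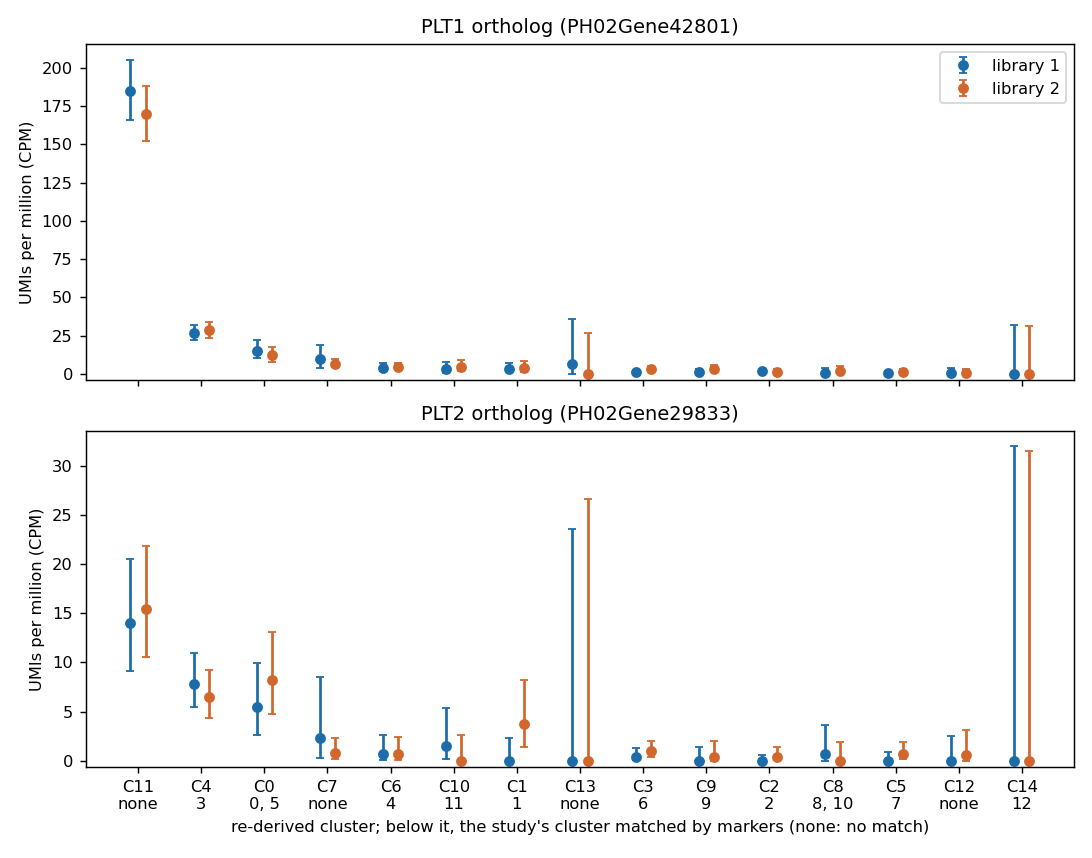
CPM of the PLT1 ortholog (upper panel) and the PLT2 ortholog (lower panel) in each re-derived cluster, ordered by the level of the PLT1 ortholog. Points are the 2 libraries, bars are 95% Poisson intervals, and the numbers under the cluster names are the matched Clusters of the study. The PLT1 ortholog stands at 185 and 170 CPM in C11 and below 30 CPM in each other cluster, while the PLT2 ortholog has its highest points in C11, C4 and C0.

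The share of cells with a UMI of the PLT1 ortholog was also highest in C11 at equal depth, and the first 5 clusters (C11, C4, C0, C7 and C6) kept their order by the mean over both libraries. Below them the order differed, and C10 and C13 took lower places by thinned share than by CPM. In C11 166 of 253 cells and 163 of 248 cells were positive, or 65.6% (59.4% to 71.4%) and 65.7% (59.5% to 71.6%), at a median of 6866 and 8175 UMIs per cell. In C5, matched to root cap Cluster 7, 0.370% and 1.18% of the cells were positive at nearly the same medians of 6952 and 8205 UMIs. When each cell was thinned to 500 UMIs, the expected share was 9.19% and 7.96% in C11, against 1.41% and 1.39% in C4 and 0.0237% and 0.110% in C5. Without thinning, positive cells of C11 also held more molecules each, with 2.07 and 2.15 UMIs per positive cell. Positive cells of C4 held 1.36 and 1.54, at cluster medians of 6611 and 7922 UMIs. Over all clusters other than C11, shallow ones included, the values were 1.22 and 1.31.

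The PLT2 ortholog had the same leading cluster but a broader distribution. It had 26 and 32 UMIs in C11, or 14.0 CPM (9.14 to 20.5) and 15.5 CPM (10.6 to 21.8). C4 followed with 34 and 29 UMIs, or 7.85 CPM (5.43 to 10.96) and 6.43 CPM (4.31 to 9.23). C0 had 10 and 17 UMIs, or 5.41 CPM (2.60 to 9.96) and 8.18 CPM (4.76 to 13.1). The intervals of C4 and C0 overlap throughout, and those of C11 touch those of C4 in library 1 and those of C0 in both libraries. In the remaining 12 clusters the mean over both libraries was 1.88 CPM or less. C11 held 32.9% and 31.1% of the UMIs of the PLT2 ortholog, about the share of C4 with 43.0% and 28.2%. In C9, the initial cells, it had 0 and 1 UMIs.

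Cluster C11 stood apart from the tissues that the study named. Of the 27 marker genes of the study, 2 were highest in C11, PH02Gene23345 and PH02Gene29817, and both mark the undefined Cluster 3. PH02Gene23345, annotated as a ubiquitin-60S ribosomal protein L40-like gene, had 517 and 499 CPM in C11, against 321 and 362 CPM in C4. PH02Gene29817 had 1122 and 1165 CPM in C11, against 1135 and 1086 CPM in C4. The third Cluster 3 marker, PH02Gene06911, was lower in C11, with 360 and 357 CPM, against 727 and 749 CPM in C4. By contrast 20 of the 27 markers took place 8 or lower of 15 in C11, and 4 took the last place. The fit of the Cluster 3 markers to C4 and to C11 was close, with a mean z-score of 1.87 in C11 and 1.94 in C4. C11 is left without a cell type name for these reasons.

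The genes that led C11 included a regulator known from xylem. Among 7224 genes with at least 20 CPM in C11, the PLT1 ortholog came after 4 others by its level there over its second cluster. These were PH02Gene42190, with 36.1 and 39.1 CPM in C11 and 25.0 times the next cluster, PH02Gene13689, with 215 and 208 CPM and 16.7 times, PH02Gene21429, with 35.0 and 33.8 CPM and 14.7 times, and PH02Gene27801, with 56.5 and 78.8 CPM and 12.2 times. The study's tables describe PH02Gene21429 as the ortholog of ANAC030 (VND7), which in Arabidopsis directs the differentiation of xylem vessels. The other 3 genes carry no description in the tables used here. The VND7 ortholog had a UMI in 42 of 253 and 42 of 248 cells of C11. Levels of the other xylem orthologs in C11 were not set out, so this 1 gene gives C11 no cell type name. The minimum of 20 CPM for this ranking was chosen after the values were seen.

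Cells positive for both orthologs were more frequent than their separate frequencies give. In library 1 26 cells held a UMI of each gene, against 4.59 expected from the share of each gene among cells of like depth. In library 2 27 cells held both, against 6.43 expected. The ratios of observed to expected were 5.67 and 4.20. Of the cells positive for the PLT2 ortholog, 37.1% and 29.0% also held the PLT1 ortholog, while of the cells positive for the PLT1 ortholog 7.93% and 7.54% also held the PLT2 ortholog. With at least 2 UMIs of each gene required, 3 cells remained in each library, against 0.162 and 0.261 expected.

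Most of the doubly positive cells lay in C11 and C4. Of the 26 cells in library 1, 17 were in C11 and 9 in C4. Of the 27 cells in library 2, 17 were in C11, 8 in C4, 1 in C3 and 1 in C9. Within C11 the number was what the frequencies gave, 17 cells against 16.1 expected in library 1 and 17 cells against 16.9 expected in library 2. Within C4 it was 9 cells against 4.64 expected and 8 cells against 4.94 expected. Over all cells outside C11 it was 9 cells against 1.33 expected and 10 cells against 2.49 expected. The ratio of observed to expected was thus 6.78 and 4.02 outside C11 and 1.06 and 1.00 within it. Within C11 the number could not pass 23 and 24, the cells positive for the PLT2 ortholog, so it had little room to exceed what was expected.

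**Figure D2:**
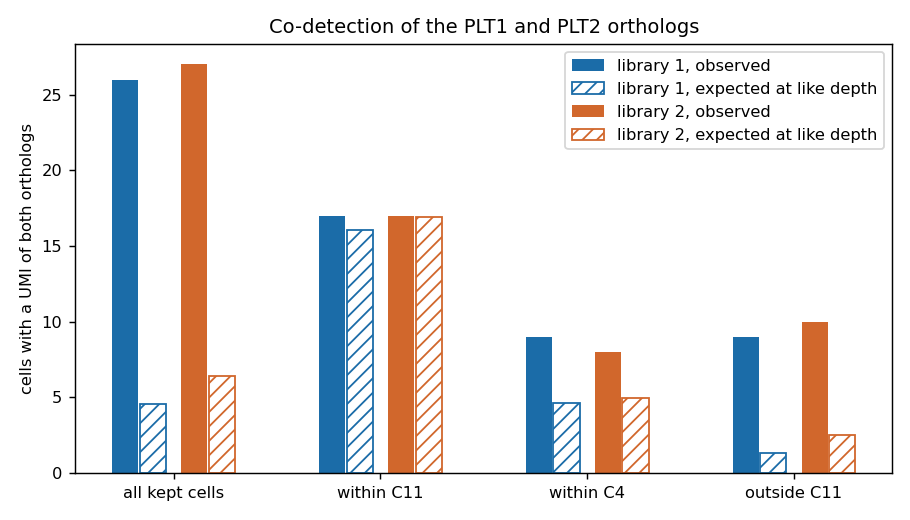
Number of cells with at least 1 UMI of both orthologs (filled bars) and the number expected from the share of each gene among cells of like depth (hatched bars), for each library. Over all kept cells 26 and 27 cells were seen against 4.59 and 6.43 expected, while within C11 the filled and hatched bars have nearly equal heights.

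The BBM ortholog PH02Gene27330 was high wherever the pair was high, but also elsewhere. It had 155 and 154 CPM in C11, 158 and 155 CPM in C4 and 131 and 135 CPM in C6, which was matched to the undefined Cluster 4. Its lowest clusters were C8, with 12.9 and 10.7 CPM, and C10, with 11.1 and 16.4 CPM, whose intervals overlap. The intervals of C11 and C4 overlap in both libraries. Of the cells positive for the PLT1 ortholog, 188 of 328 and 208 of 358 also held PH02Gene27330, against 111 and 130 expected at like depth. Of the cells positive for the PLT2 ortholog, 42 of 70 and 57 of 93 held it, against 23.6 and 30.8 expected. Within C11 the PLT1 ortholog and PH02Gene27330 were found together in 113 and 107 cells, against 108 expected in each library. C6 shows the difference between the genes, since the PLT1 ortholog had 3.92 and 4.30 CPM there.

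The VND7 ortholog PH02Gene21429 was found in 55 cells of each library, and 33 and 27 of these also held the PLT1 ortholog, against 4.29 and 4.63 expected at like depth. Within C11 the pair met in 30 and 23 cells, against 29.6 and 30.0 expected. Cells with the PLT2 ortholog and PH02Gene21429 together numbered 3 and 7, against 0.920 and 1.13 expected, and all of them were in C11. Within C11 the VND7 ortholog was thus not more frequent in cells with the PLT1 ortholog than the frequencies of both genes give.

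Levels of these genes were also set out by the number of PLT1 ortholog UMIs in a cell, here without matching for depth. Cells with 0 UMIs had medians of 2919 and 3253 UMIs of all genes, and the classes of positive cells had medians between 6403 and 10390. The PLT2 ortholog had 1.33 and 1.78 CPM in cells with 0 UMIs of the PLT1 ortholog, 7.60 and 8.86 CPM in cells with 1, 27.0 and 14.6 CPM in cells with 2 to 3, and 11.1 and 8.35 CPM in cells with 4 or more, the last resting on 3 UMIs in each library. PH02Gene27330 had 69.3 and 65.1 CPM in cells with 0 UMIs of the PLT1 ortholog, 147 and 112 CPM with 1, 147 and 154 CPM with 2 to 3, and 145 and 148 CPM with 4 or more. Its level was thus higher in each class of positive cells than in negative cells, while among positive cells the intervals overlapped except between cells with 1 and cells with 2 to 3 UMIs in library 2. The share of cells that lay in C11 differed along the same order. It was 1.19% and 1.17% with 0 UMIs, 35.5% and 33.6% with 1, 77.9% and 66.7% with 2 to 3, and 88.0% and 80.0% with 4 or more, and its part in these levels was not tested.

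**Figure D3:**
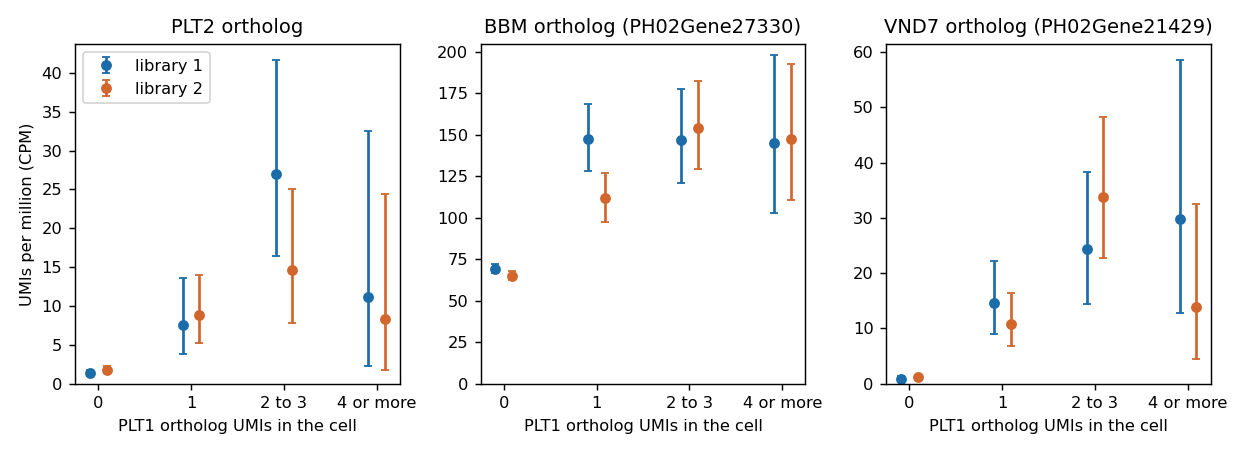
CPM of the PLT2 ortholog, the BBM ortholog and the VND7 ortholog in cells grouped by the number of PLT1 ortholog UMIs they hold, with 95% Poisson intervals and the 2 libraries side by side. All 3 genes are lowest in cells with no PLT1 ortholog UMI, and the BBM ortholog lies between 112 and 154 CPM in every class of positive cells. The classes differ in depth and were not matched.

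Levels in cells defined by single marker genes were among the values that chose the pair and are given as a description. Among cells with at least 3 UMIs of a marker, the level of the PLT1 ortholog was highest with the Cluster 3 markers, at 62.2 ± 13.7 CPM with PH02Gene23345, 32.0 ± 3.39 CPM with PH02Gene06911 and 30.9 ± 3.01 CPM with PH02Gene29817 (SD, n = 2 libraries). It was 30.8 ± 1.78 CPM with the Cluster 4 marker PH02Gene35698 but 4.42 ± 1.10 CPM with the other marker of that Cluster, PH02Gene41010. Among the initial cell markers it was 13.4 ± 0.230 CPM with PH02Gene30509, 5.74 ± 0.676 CPM with PH02Gene30511 and 2.26 ± 0.153 CPM with PH02Gene04325. For the PLT2 ortholog the same 4 markers led, with 7.24 ± 0.524 CPM in cells with PH02Gene23345, 4.27 ± 1.29 CPM with PH02Gene06911, 4.12 ± 0.629 CPM with PH02Gene35698 and 4.12 ± 0.303 CPM with PH02Gene29817.

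The genes with the most similar distribution were sought over the 30 sums of 15 clusters in 2 libraries, among genes with at least 500 UMIs. These sums share libraries and differ widely in depth, so the coefficients are a description. The PLT1 and PLT2 orthologs had a Pearson r of 0.88 with each other on the scale of log2(CPM + 1). Closest to the PLT1 ortholog were PH02Gene31162 (r = 0.91), PH02Gene23345 (r = 0.90), PH02Gene38896 (r = 0.87), PH02Gene35480 (r = 0.87) and PH02Gene49336 (r = 0.86). After the PLT1 ortholog itself, closest to the PLT2 ortholog were PH02Gene30111 (r = 0.85), PH02Gene38896 (r = 0.84), PH02Gene16891 (r = 0.82), PH02Gene44452 (r = 0.81) and PH02Gene32352 (r = 0.79). PH02Gene38896, which was close to both, had 220 and 226 CPM in C11 and 180 and 195 CPM in C4. The BBM ortholog PH02Gene27330 had r = 0.70 with the PLT1 ortholog and r = 0.65 with the PLT2 ortholog.

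Genes other than the pair were then tested between cells that held the PLT1 ortholog and as many cells of the same library that held neither gene and had the nearest number of UMIs. The UMIs were summed over 328 positive and 328 negative cells in library 1 and over 358 positive and 358 negative cells in library 2, and edgeR's quasi-likelihood test was run over 17218 genes with Benjamini-Hochberg adjustment. In these tests p-values measure only the spread between 2 libraries. Adjusted p was under 0.05 for 6700 genes, 38.9% of those tested, with 3162 higher (18.4%) and 3538 lower (20.5%) in the PLT1-positive cells. Of the positive cells 50.6% and 45.5% lay in C11, against 2.13% and 1.40% of the matched negative cells. Matched within cluster as well as library and depth, 3 of 15720 genes passed in place of 6700, all of them higher and without a description in the study's tables. These were PH02Gene13689, PH02Gene35480 and PH02Gene37018, with log2 fold changes of 1.32, 1.22 and 1.59. In that alternative 243 and 273 positive cells found a partner, and the partners held 18.02% and 12.6% fewer UMIs in sum. Without the cells of C11, 2017 of 13425 genes passed.

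Among the family, the BBM ortholog PH02Gene27330 was the 1 member of 3 with enough counts for the test, and it was higher in PLT1-positive cells. It had 147 and 127 CPM in PLT1-positive cells, against 78.2 and 57.0 CPM in the matched negative cells, a log2 fold change of 0.86 ± 0.15 (SE; edgeR adjusted p = 2.0e-04). The groups do not overlap. The call was lost when cells were matched within cluster (log2 fold change 0.09, adjusted p = 0.86) and without the cells of C11 (0.57, adjusted p = 0.059). The AIL6 ortholog PH02Gene06628 had 0 and 1 UMIs and the second BBM ortholog PH02Gene22504 had 3 and 2 UMIs in PLT1-positive cells, against 0 and 0 UMIs and 0 and 3 UMIs in negative cells.

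Of 7 orthologs of root patterning and stem cell regulators, all tested, 3 were higher and none lower, where 18.4% of all genes tested were higher and 20.5% lower, with a median log2 fold change of 0.37 over the 7, against 0.04 over all genes tested. PH02Gene04596, ortholog of NTT, a zinc finger gene that in Arabidopsis acts with its relatives in setting up the root meristem, had 21.2 and 18.3 CPM in PLT1-positive cells, against 8.95 and 8.23 CPM in negative cells (log2 fold change 1.02, adjusted p = 0.0035). PH02Gene21484, ortholog of SCR, a GRAS factor needed for the quiescent centre and the endodermis in Arabidopsis, had 7.73 and 9.45 CPM in PLT1-positive cells, against 3.66 and 4.27 CPM in negative cells (0.94, adjusted p = 0.046). PH02Gene25703, ortholog of the bZIP factor gene PAN, had 103 and 86.6 CPM in PLT1-positive cells, against 57.0 and 47.2 CPM in negative cells (0.70, adjusted p = 0.0013). The second orthologs of NTT and PAN, PH02Gene44831 and PH02Gene07819, did not pass. With DESeq2 the NTT and SCR orthologs lost the call at log2 fold changes of 1.00 and 0.92 (adjusted p = 0.095 and 0.36). Matched within cluster all 3 lost it, with log2 fold changes of 0.78 for the NTT ortholog, 0.13 for the SCR ortholog and 0.10 for the PAN ortholog.

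The auxin response genes listed by the study mostly went the other way. The study's list holds 22 AUX/IAA genes, which encode repressors of auxin-responsive transcription that are themselves induced by auxin, and 1 ARF gene. Of its 23 genes 21 could be tested, and 14 were lower and 1 higher in PLT1-positive cells, where 20.5% of all genes tested were lower. The median log2 fold change was -1.13. PH02Gene23239 had 16.3 and 13.1 CPM in PLT1-positive cells, against 62.7 and 65.2 CPM in negative cells, and fell by 2.31 on the log2 scale. PH02Gene05831 had 140 and 206 CPM in PLT1-positive cells, against 522 and 552 CPM in negative cells, and fell by 1.79, PH02Gene18976 fell by 1.43 and PH02Gene01142 by 1.41. The higher gene was PH02Gene23709, named here after its values were seen, with 422 and 373 CPM in PLT1-positive cells, against 194 and 250 CPM in negative cells (log2 fold change 0.66, adjusted p = 7.8e-04). In each of the 4 lower genes named both libraries of positive cells lay below both libraries of negative cells, with adjusted p of 1.4e-05 or less. The study drew up this list on the same samples and chose such factors by high expression in a cell type. It describes AUX/IAA and ARF factors as preferentially expressed in its ground tissue Cluster 10. The direction of the list in other cells is therefore not independent evidence, and it does not extend to auxin response genes in general. Matched within cluster none of the 4 passed, and PH02Gene01142 had a log2 fold change of 0.16.

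Of 10 vascular orthologs 6 could be tested, and 4 were lower and none higher, where 20.5% of all genes tested were lower and 18.4% higher. They were 3 orthologs of HCA2 (DOF5.6), a DOF factor gene of the Arabidopsis vasculature, with log2 fold changes of -2.54 (PH02Gene01505), -2.12 (PH02Gene00562) and -1.69 (PH02Gene03321), and the ATHB-8 ortholog PH02Gene34818 with -1.32. ATHB-8 marks procambium in Arabidopsis. These are low transcripts, with at most 14.7 CPM in any of the 4 sums. PH02Gene01505 had 3 and 6 UMIs in PLT1-positive cells, against 29 and 18 UMIs in negative cells. PH02Gene00562 had 8 and 9 UMIs in PLT1-positive cells, against 36 and 30 UMIs in negative cells. PH02Gene34818 had 8 and 8 UMIs in PLT1-positive cells, against 14 and 22 UMIs in negative cells. Each of these passed the filter on low counts through the negative cells, so the count of 4 is largely set by that filter. Matched within cluster none of the HCA2 orthologs passed, with log2 fold changes of -1.63, -1.41 and -0.75, and PH02Gene34818 lost its call with DESeq2 (adjusted p = 0.22). Of 18 xylem differentiation orthologs 13 were tested, with 1 higher and 1 lower, shares below those of all genes tested. The higher one was the VND7 ortholog PH02Gene21429, with 19.1 and 17.4 CPM in PLT1-positive cells, against 1.63 and 1.52 CPM in negative cells (log2 fold change 3.33 ± 0.37, SE; adjusted p = 2.4e-06). It had 47 and 57 UMIs in PLT1-positive cells, against 4 and 5 UMIs in negative cells, and so passed the filter through the positive cells. Without the filter its log2 fold change was 3.33 as well, and matched within cluster it was 0.55 (adjusted p = 0.46). The lower one was PH02Gene10076, ortholog of the xylem cysteine protease XCP1, with 36.6 and 65.5 CPM in PLT1-positive cells, against 96.9 and 137 CPM in negative cells (-1.34, adjusted p = 7.8e-05). The 9 orthologs of the cellulose synthase gene CESA4 and the 2 of XCP2 that were tested did not pass. Of 9 epidermis and endodermis orthologs 6 were tested, with KCS20 ortholog PH02Gene25671 higher (1.19) and MYB36 ortholog PH02Gene13428 lower (-0.67), again shares below those of all genes tested.

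**Figure D4:**
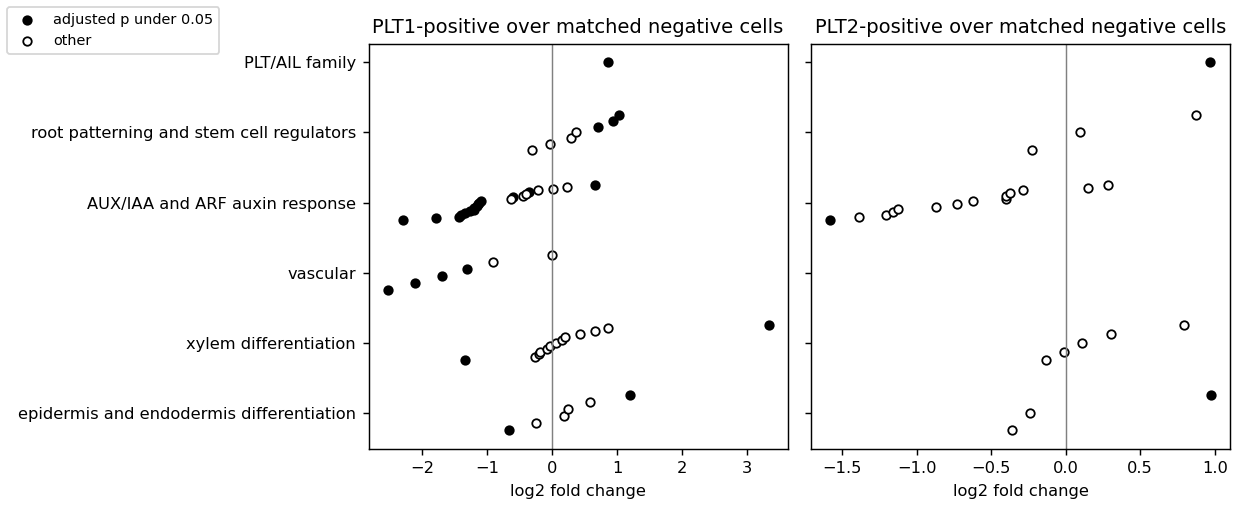
Log2 fold change of each tested member of 6 gene lists in PLT1-positive cells over depth-matched negative cells (left) and in PLT2-positive cells over depth-matched negative cells (right). Filled points had an adjusted p under 0.05 (edgeR). In the left panel 14 of the 21 tested genes of the AUX/IAA and ARF list are filled on the lower side, and the VND7 ortholog is at 3.33, against 0.55 when cells were matched within cluster.

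Single genes with a mean of at least 20 CPM were then ranked by size, with the study's marker genes left out. The 3 markers of Cluster 3 were all higher in PLT1-positive cells, with log2 fold changes of 1.05 to 2.17. Among the ranked genes, the described ones with the largest log2 fold changes were the following. PH02Gene02449, an IQ domain protein gene similar to IQM2, had a log2 fold change of 1.57, the plasma membrane calcium ATPase gene PH02Gene02229 one of 1.31, the SABRE gene PH02Gene32856 one of 1.31, the exosome subunit gene PH02Gene31026 (RRP45A) one of 1.19 and the KCS20 ortholog PH02Gene25671 one of 1.19. PH02Gene43305, ortholog of AT3G02230, had 1.14, and PH02Gene43119, annotated as an AP2/EREBP-like protein and so of the same broad factor class as the pair, had 1.04. PH02Gene41070, PH02Gene44060 and PH02Gene36445, which the tables list as hypothetical or uncharacterised proteins, had 1.18, 1.15 and 1.05. The largest changes among genes without description were 4.71 for PH02Gene13689 and 4.04 for PH02Gene35480. Lower in PLT1-positive cells were the uncharacterised PH02Gene44628 (-2.36), the nudix hydrolase gene PH02Gene43520 (-2.31), the LURP-one-related gene PH02Gene02152 (-2.19) and the germacrene D synthase gene PH02Gene40249 (-2.09), and without description PH02Gene13083 (-2.81) and PH02Gene39337 (-2.71). Adjusted p was 1.6e-04 or less for each of the ranked genes named.

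The same test for the PLT2 ortholog rested on 70 and 93 positive cells and as many negative cells of like depth, and covered 9294 genes. Adjusted p was under 0.05 for 1069 genes, 11.5% of those tested, with 481 higher (5.18%) and 588 lower (6.33%) in PLT2-positive cells. Of the positive cells 32.9% and 25.8% lay in C11, against 0% and 2.15% of the negative cells. The 2 comparisons share positive cells, and their negative cells come from the same pool. Matched within cluster, 0 of 9239 genes passed in edgeR, and 487 had an unadjusted p under 0.05. No other tool was run on that alternative. Without the cells of C11, 6 of 7427 genes passed.

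PH02Gene27330, the BBM ortholog, was again the 1 family member tested and was higher, with 168 and 159 CPM in PLT2-positive cells, against 75.6 and 77.0 CPM in negative cells (log2 fold change 0.97 ± 0.22, SE; adjusted p = 0.023). With DESeq2 its adjusted p was 0.079, and matched within cluster its log2 fold change was 0.27 (adjusted p = 0.97). Of the patterning list 3 genes were tested and none passed. The PAN ortholog PH02Gene25703 had 114 and 73.2 CPM in PLT2-positive cells, against 46.1 and 45.9 CPM in negative cells (0.88, adjusted p = 0.075). Of the AUX/IAA and ARF list 14 were tested, 1 was lower and none higher, a share near the 6.33% of all genes tested that were lower, with a median log2 fold change of -0.68, against 0.02 over all genes tested. The lower one was PH02Gene05831, with 129 and 217 CPM in PLT2-positive cells, against 467 and 500 CPM in negative cells, which fell by 1.58 (adjusted p = 0.0093). Matched within cluster the log2 fold change of PH02Gene05831 was 0.24. No vascular ortholog had enough counts, and none of the 5 xylem orthologs tested passed. The VND7 ortholog was not among those tested here. Of 3 epidermis and endodermis orthologs the KCS20 ortholog PH02Gene25671 was higher (0.98), where 5.18% of all genes tested were higher and 6.33% lower. With 3 to 5 genes tested, the counts of the patterning, xylem and epidermis lists are too small to set against these shares.

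The study's marker genes were left out of this ranking as well. The 3 markers of Cluster 3 were all higher in PLT2-positive cells, with log2 fold changes of 0.90 to 1.67. Described genes that ranked highest were the calcium ATPase gene PH02Gene02229 (log2 fold change 1.40), the IQM2-like gene PH02Gene02449 (1.30), the phosphate transporter gene PH02Gene21291 (1.26), the AT3G02230 ortholog PH02Gene43305 (1.24) and the SABRE gene PH02Gene32856 (1.17). They were followed by the uncharacterised PH02Gene41070 (1.05), the MYB family gene PH02Gene41658 (1.00), the receptor-like kinase gene PH02Gene24465 (0.98) and the KCS20 and BBM orthologs given above. PH02Gene31597 (3.39) and PH02Gene46513 (3.02) led the genes without description. PH02Gene31597 had 30 and 40 UMIs in PLT2-positive cells, against 0 and 6 UMIs in negative cells. PH02Gene46513 had 19 and 45 UMIs, against 0 and 7 UMIs. Both passed the filter on low counts through the positive cells, so their direction was partly set by that filter. Outside the markers, the lowest were PH02Gene02152 (-3.05), PH02Gene44628 (-2.62), PH02Gene43520 (-2.56), the dirigent protein gene PH02Gene15809 (-2.34) and the aquaporin gene PH02Gene26386 (-2.11), and without description PH02Gene41580 (-3.74) and PH02Gene24912 (-3.18). Adjusted p was 0.045 or less for each of the ranked genes named. PH02Gene44628 had 4 and 7 UMIs in PLT2-positive cells, against 38 and 23 UMIs in negative cells. PH02Gene41580 had 0 and 6 UMIs, against 37 and 38 UMIs, and PH02Gene24912 had 1 and 11 UMIs, against 36 and 66 UMIs. PH02Gene02152 had 6 and 24 UMIs, against 89 and 137 UMIs. PH02Gene15809 had 3 and 20 UMIs, against 47 and 58 UMIs, and PH02Gene26386 had 5 and 12 UMIs, against 28 and 40 UMIs. These genes passed the filter through the negative cells, so their direction was partly set by it as well. With DESeq2 the calls of PH02Gene02449 (adjusted p = 0.087), PH02Gene32856 (0.056), PH02Gene24465 (0.24) and PH02Gene25671 (0.26) were lost, and without the filter on low counts those of PH02Gene24465 (0.068) and PH02Gene25671 (0.079). PH02Gene02229, present in both rankings, had 347 and 226 CPM in PLT2-positive cells, against 101 and 95.6 CPM in their negative cells, and 256 and 194 CPM in PLT1-positive cells, against 88.3 and 72.8 CPM in theirs.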

How the data were processed

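The authors deposited, for each of the 2 libraries, a matrix of UMI counts per gene and cell barcode. Per the submitters' processing notes and the study's methods, these were made with Cell Ranger 5.0.1 and STAR on the moso bamboo genome, and the counts are not normalized. Barcodes with more than 500 genes were kept. The study's further filters on UMI number and on mitochondrial genes were not applied, and the study kept fewer cells. Doublets were neither called nor removed. The kept cells held 36411035 UMIs in library 1 and 42123681 UMIs in library 2, with 567 to 29912 and 590 to 69583 per cell. Clopper-Pearson intervals (shares) and exact Poisson intervals (levels) have 95% coverage of counting error only.

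Cells were clustered with Seurat 5.3.0 in R 4.3.3, with 2000 variable genes, 20 principal components and resolution 0.8. Before that, 32 genes (the PLETHORA orthologs and the study's markers) had been barred from the variable genes. The VND7 ortholog was not barred. Clusters were matched to those of the study by the mean z-score of its marker genes, since cluster labels of cells were not used here. Expected co-detection was summed over 20 depth bins per library (5 within a cluster), from the product of the shares of both genes in each bin. Thinned shares are exact expectations at 500 UMIs per cell.

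UMIs were summed per library over positive cells and over negative cells of nearest UMI number, and tested with edgeR 4.0.16 (filterByExpr, TMM, quasi-likelihood F test, Benjamini-Hochberg adjustment over all genes tested). TMM moved log2 fold changes by -0.17 (PLT1) and -0.12 (PLT2) against plain CPM. The CPM printed are not TMM-scaled. The fits were tested on simulated sums with 100 genes changed 2-fold and 100 genes changed 4-fold. The PLT1 fit recovered 65% and 90% of these, and the PLT2 fit 36% and 80%. A gene that did not pass in the PLT2 test can therefore still differ. DESeq2 1.42.0 and the other alternatives are in the closing section. Positive and negative sums with the same number come from the same library. There were 2 such pairs in each comparison. Over genes with at least 50 UMIs, the deviations of these sums from the class means correlated with r = 0.09 (PLT1) and 0.0024 (PLT2).

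Genes named in the tests were those with the 10 largest and 5 smallest log2 fold changes among described genes with adjusted p under 0.05, a mean of at least 20 CPM and the same direction in both libraries, up to 2 genes without description in each direction, and up to 4 members of each list by absolute log2 fold change. The study's marker genes were left out of the choice by size. Members, lists and tests were chosen with earlier results of these data known. The study's comparisons across cells were not used, and neither sequences nor coordinates of the genes were used here. Scripts ran in Python 3.11.15.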

Additional observations from a re-analysis of the deposited data

How the results depend on the processing

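Levels and shares per library did not change direction with any alternative, and leaving out a library gave 14.4 to 14.8 CPM for the PLT1 ortholog and 2.17 to 2.45 CPM for the PLT2 ortholog. The co-detection ratio (4.94 as the mean of both libraries) was 6.19 with cells thinned to 2000 UMIs, 2.70 with cells thinned to 500 UMIs, 14.99 with at least 2 UMIs of each gene and 1.03 within C11, which was added after the data were seen. It was 4.20 to 5.67 with a library left out. The level of the PLT1 ortholog in its highest cluster over the second was 9.93 at resolution 0.6 and 9.77 with 30 principal components, and 499 and 492 cells of C11 lay in that cluster. The share of C11 cells with a UMI was 28.6% for the PLT1 ortholog and 2.93% for the PLT2 ortholog when thinned to 2000 UMIs, and 65.7% and 9.38% at the depth as deposited.

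The numbers of genes called moved most with how negative cells were chosen. For PLT1-positive cells they were 10999 against all negative cells, 3 matched within cluster, 3201 with DESeq2, 2017 without the cells of C11 and 18 within C11, where 81 and 78 positive cells found partners that held 41.4% and 37.2% fewer UMIs. For PLT2-positive cells they were 4654, 0, 470, 6 and 0 in the same order, and 200 with at least 2 UMIs, from 6 and 8 positive cells. Within C11 the PLT2 test had 304 genes with an unadjusted p under 0.05, by edgeR only. The fits without and within C11 were added after the data were seen, and the cause of these differences was not tested. Matched within cluster, 2 of the 33 named genes passed for PLT1 and none of the 20 for PLT2. Log2 fold changes turned sign there for PH02Gene01142 (0.16, PLT1) and for PH02Gene25671 (-0.13), PH02Gene15809 (0.014) and PH02Gene05831 (0.24, all PLT2). Within C11 they did so for PH02Gene32856 (-0.15), PH02Gene25671 (-0.042) and PH02Gene21429 (-0.37) in PLT1-positive cells and for PH02Gene25671 (-0.24) in PLT2-positive cells. The SCR ortholog PH02Gene21484 also lost its call with DESeq2's size factors (adjusted p = 0.054) and without the filter on low counts (0.056).

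With the library as a replicate block, 7228 genes were called for PLT1 and 1372 for PLT2, and every named gene kept its call. With a library left out, 1 sum per class remained, so no test could be made, and all named genes kept the sign of the difference in each library. Genes named by size had been required to have the same direction in both libraries, so for them this was set in advance. The PLT2 ortholog had 182 UMIs in all, which limits the precision of its levels.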
